A study of Mus musculus with 20 samples.

Results

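The 8 genes described here are the liver X receptors Nr1h3 and Nr1h2, the sterol transporters Abca1 and Abcg1, the apolipoprotein Apoe, the ubiquitin ligase Mylip, the phospholipid-remodelling enzyme Lpcat3 and the efflux pump Abcg2. They were chosen by name as receptors, targets and efflux genes of the LXR pathway, from the 56748 genes of the count tables, and all 8 passed the minimum of 10 counts in total in both experiments. RNA-seq was used to ask how their transcripts differed when iNOS, the enzyme that makes nitric oxide (NO•) in activated macrophages, or Akr1a1, a reductase, was knocked out (KO). There were 20 libraries in 2 experiments.

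The iNOS experiment held 12 libraries, 3 in each of 4 groups, from wildtype (WT) or iNOS KO macrophages that were unstimulated or stimulated for 48 h. The labels name these cells bone marrow-derived macrophages (BMDM) of C57BL/6J mice, grown with M-CSF and stimulated with 50 ng/mL LPS and 30 ng/mL IFNγ. The study's methods instead name RAW264.7, a mouse macrophage-like line, as the source of this RNA. In its BMDM cultures, marrow was pooled by genotype, with C57BL/6J named for WT mice and a separate strain for iNOS KO mice. Its RAW264.7 iNOS KO cells were a line generated as in earlier work. With either source, strain or line cannot be told apart from genotype in this experiment. The second experiment held 8 libraries, 2 in each of 4 groups, from RAW264.7 cells that were WT or Akr1a1 KO and were left unstimulated or kept for 48 h in LPS (50 ng/mL) and IFNγ (10 ng/mL). Its KO lines were CRISPR-edited single-cell clones, and the 2 libraries of a group were different clones. The titles of 2 of these libraries, replicate B of both unstimulated groups, say stimulated, whereas their treatment field and library name say unstimulated. They were used as unstimulated. All groups of an experiment shared the culture medium, and the sources used here give no other treatment.

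LXRs are nuclear receptors that bind oxysterols and desmosterol, pair with RXR and switch on genes that move cholesterol out of the cell. ABCA1 and ABCG1 load cholesterol onto apolipoprotein acceptors, APOE is such an acceptor, and MYLIP (also called IDOL) is a ubiquitin ligase that limits lipoprotein uptake. A second arm, the SREBP2 programme, makes and takes up cholesterol when the cell runs short of it.

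The tables list Abca1 (ENSMUSG00000015243) on chromosome 4 from 53030787 to 53159895. Abcg1 (ENSMUSG00000024030) lies on chromosome 17 from 31276649 to 31336962. Nr1h3 (ENSMUSG00000002108), which encodes LXRα, lies on chromosome 2 from 91014406 to 91033179, and Nr1h2 (ENSMUSG00000060601), which encodes LXRβ, on chromosome 7 from 44199040 to 44203375. Mylip (ENSMUSG00000038175) is on chromosome 13 from 45543218 to 45565498 and Apoe (ENSMUSG00000002985) on chromosome 7 from 19430034 to 19433113. Lpcat3 (ENSMUSG00000004270) and Abcg2 (ENSMUSG00000029802) are on chromosome 6, from 124639990 to 124681381 and from 58561508 to 58672661. The tables name no build for these positions. For Mylip and Nr1h2 they do not meet the GRCm38.p6 promoter windows given below, so the 2 sets of coordinates are not to be compared. All 8 genes are protein-coding, and counts were made per gene. Lpcat3 overlaps Emg1, a protein-coding gene on the other strand with up to 2289 counts in a library of the iNOS experiment and up to 5968 in the RAW264.7 experiment. The strand setting of the counting is not given in the sources used here, so reads from that overlap cannot be told apart.

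Promoter windows of RefSeq (GRCm38.p6, from 250 bases before to 50 bases after a start site) were found for 7 of the 8 genes, in 12 windows. The 3 printed here belong to Abca1, Mylip and Nr1h2, the members whose transcripts rose on stimulation of WT cells (Mylip with TMM scaling and not with library totals) and were lower in stimulated iNOS KO cells. They are chr4:53159846-53160145 on the minus strand, chr13:45389492-45389791 on the plus strand and chr7:44553916-44554215 on the minus strand, each written 5′ to 3′ along its gene. Capitals mark a relaxed LXR half-site repeat (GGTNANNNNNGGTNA, where N is any base) and the TATA motif TATAAA.
Abca1: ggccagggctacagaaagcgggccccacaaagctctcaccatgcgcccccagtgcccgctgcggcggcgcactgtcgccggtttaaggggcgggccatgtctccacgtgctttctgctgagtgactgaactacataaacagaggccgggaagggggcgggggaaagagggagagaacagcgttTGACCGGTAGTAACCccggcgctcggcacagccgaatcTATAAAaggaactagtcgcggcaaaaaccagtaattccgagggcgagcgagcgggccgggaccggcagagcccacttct
Mylip: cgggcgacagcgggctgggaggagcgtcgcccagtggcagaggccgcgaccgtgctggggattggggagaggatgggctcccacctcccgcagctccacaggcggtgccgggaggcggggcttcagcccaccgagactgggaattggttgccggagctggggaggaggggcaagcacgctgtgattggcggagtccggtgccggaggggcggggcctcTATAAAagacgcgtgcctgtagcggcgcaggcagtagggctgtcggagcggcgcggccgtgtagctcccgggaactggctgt
Nr1h2: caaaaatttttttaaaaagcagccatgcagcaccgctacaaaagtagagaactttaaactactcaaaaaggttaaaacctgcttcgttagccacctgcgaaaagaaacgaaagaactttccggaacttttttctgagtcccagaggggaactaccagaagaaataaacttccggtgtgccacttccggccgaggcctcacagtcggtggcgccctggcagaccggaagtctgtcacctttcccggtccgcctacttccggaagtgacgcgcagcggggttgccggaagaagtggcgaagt

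Both strands were searched, and the motifs were chosen after the sequences had been seen. The relaxed repeat lay in the window of Abca1 alone among the 7 genes, from -67 to -53 on the reverse strand, where position 0 is the start base and the gene-strand letters are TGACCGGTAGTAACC. Of 32851 RefSeq windows of this length, 0.718% held it. The stricter repeat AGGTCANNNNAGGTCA, whose matches the relaxed form includes, was in none of the 12 windows and in 0.0152% of all windows. TATAAA began at -29 in Abca1 and at -32 in Mylip and was in 13.6% of all windows, whereas the window of Nr1h2 held neither it nor the GC box GGGCGG (35.7% of all windows). The interferon-related motif TTCNNNGAA was in none of the members' windows and in 8.30% of all windows. A match describes the letters of a window and says nothing of binding.

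Nos2, which encodes iNOS, had 1.25, 1.45 and 1.53 CPM (counts for every 1000000 of the TMM-scaled library size) in unstimulated WT libraries, 10370.2, 11533 and 11312 in stimulated WT, 0 in all 3 unstimulated iNOS KO libraries and 870.5, 891 and 912 in stimulated iNOS KO. The KO level after stimulation was 12.4-fold below WT. In RAW264.7 cells, Akr1a1 stood at 427 and 488 CPM in unstimulated WT, 206 and 21.8 in unstimulated KO, 576 and 675 in stimulated WT and 370.4 and 212 in stimulated KO clones. Both KO groups lay below WT without overlap, but the differences did not pass the test (adjusted p 0.56 unstimulated and 0.643 stimulated). Replicate B of the unstimulated groups, whose titles disagree, had 30.7 (WT) and 38.1 (KO) CPM of Nos2, against 4155 to 8806 in stimulated RAW264.7 libraries.

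Library totals ran from 15072109 to 18878107 counts in the iNOS experiment and from 11876719 to 44583327 in RAW264.7 cells. All 7 macrophage markers (led by Lyz2) were detected in each group except unstimulated Akr1a1 KO, where Mertk was at 0, and their sum ran from 4549 to 9889 CPM in the iNOS experiment. The sum of 6 neutrophil markers was at most 1.17 CPM in unstimulated and 35.5 to 62.1 in stimulated libraries of that experiment and up to 419.9 in stimulated RAW264.7 cells, nearly all of it S100a8, with S100a9 and Ly6g at or near 0. The fibroblast sum was at most 0.293 CPM in unstimulated libraries of the iNOS experiment. It was 3.58 to 4.92 CPM in stimulated WT and 10.4 to 15.8 in stimulated iNOS KO, led by Dcn, and at most 2.53 in RAW264.7 cells. Lymphocyte sums stayed at or under 0.693 CPM. Transcripts of the complement chains C1qa, C1qb and C1qc, examined after the values had been seen and known to be abundant in BMDMs, had 0 to 2 counts a library in the unstimulated groups labelled BMDM. Apoe, known to be abundant in BMDMs and scarce in RAW264.7 cells, had at most 3.56 CPM in that experiment. The 3 chains reached at most 13 counts in stimulated WT but 26 to 148 in stimulated iNOS KO libraries (up to 9.01 CPM, in C1qb), whereas the RAW264.7 experiment had at most 1. The unstimulated levels go against the BMDM label, and the stimulated iNOS KO levels differ from those of the RAW264.7 libraries. The paper describes BMDMs as not proliferating, whatever their genotype or stimulation, and RAW264.7 cells as held back from proliferating by the NO• made on stimulation. In the unstimulated libraries labelled BMDM, Mki67, a marker of cycling cells, had 489 to 648 CPM. After stimulation it had 27.7 to 31.3 CPM in WT and 148 to 282 in iNOS KO libraries. The labels and methods were not reconciled here, and the libraries are called the iNOS experiment below. Replicate B of stimulated iNOS KO stood apart from its group (chi-square per degree of freedom of 28.8 and 36.8 against A and C, other pairs of this experiment 2.65 to 7.74).

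Per kilobase of transcript, unstimulated WT cells of the iNOS experiment held most Lpcat3 (17.4 ± 0.94 CPM per kb, SD, n = 3), Nr1h2 (17.3 ± 0.21) and Abcg1 (16.8 ± 0.88), and these 3 did not differ beyond their spread. Abca1 (8.27 ± 0.17) followed, then Mylip (4.67 ± 0.05) and Nr1h3 (4.31 ± 0.33), which lay within about 1 SD of each other, then Apoe (1.51 ± 0.05) and Abcg2 (0.150 ± 0.02). After stimulation of WT cells the order was led by Nr1h2 (53.5 ± 1.19) and Abca1 (20.9 ± 1.04), ahead of Abcg1 (17.3 ± 0.97) and Lpcat3 (11.5 ± 0.51). In unstimulated WT RAW264.7 cells Abcg1 (24.1 ± 3.52, n = 2), Nr1h2 (22.3 ± 1.59) and Lpcat3 (17.04 ± 4.63) again stood highest and within their spread, and Abca1 (3.54 ± 0.79) was below Apoe (4.50 ± 0.74) by no more than the spread. LXRβ transcripts thus exceeded LXRα transcripts per kilobase in every group.

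In stimulated cells of the iNOS experiment, all 8 genes differed between iNOS KO and WT at an adjusted p under 0.05 (edgeR's quasi-likelihood test, Benjamini-Hochberg over 18691 genes). Abca1, Nr1h2, Mylip and Abcg1 were lower in iNOS KO cells, and Abcg2, Apoe, Nr1h3 and Lpcat3 were higher. In each, the 3 KO libraries did not overlap the 3 WT libraries. The share of all genes without overlap was not computed, here or for the comparisons below. Of all genes tested, 24.2% were called higher and 24.2% lower in this comparison, so 4 members in each direction is to be read against a call in nearly every other gene.

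**Figure D1:**
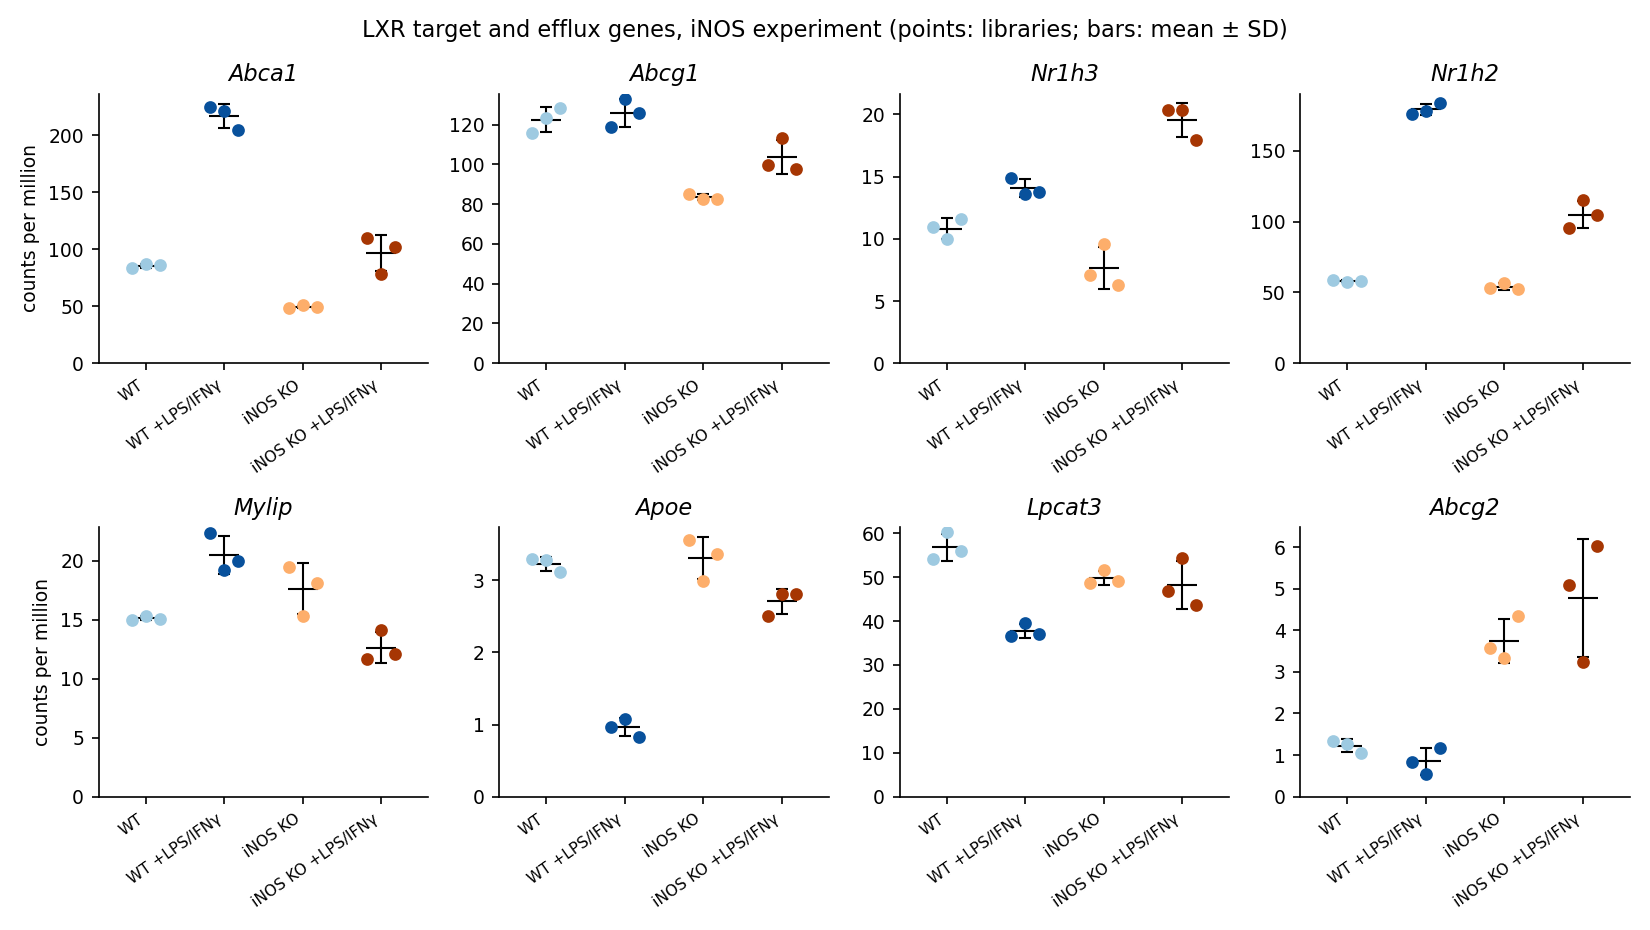
CPM of the 8 genes (vertical axes, linear from 0) in the 4 groups of the iNOS experiment; points are libraries, horizontal ticks with bars the mean and SD of 3 libraries. Abca1 reaches 205 to 225 CPM in stimulated WT and 78.6 to 109.5 in stimulated iNOS KO, while Abcg2 stays at or under 1.35 CPM in WT and at or above 3.24 in iNOS KO.

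Of the transporters, Abca1 had 225, 222 and 205 CPM in stimulated WT and 109.5, 78.6 and 102 in stimulated iNOS KO libraries. It was 2.24-fold lower in KO cells (log2 fold change -1.17 ± 0.09 SE, edgeR adjusted p = 1.94e-08), the largest decrease among the 8 genes. Without replicate B of the KO group, which held the 78.6, the difference was -1.04 on the log2 scale (adjusted p = 3.58e-14 in edgeR). Abcg1 had 119, 133 and 126 CPM in WT and 99.7, 113 and 97.6 in KO libraries, a smaller decrease of 1.22-fold (-0.28 ± 0.07, edgeR adjusted p = 0.00386). Fitted on only these 2 groups, the Abcg1 difference was -0.21 and no longer passed (edgeR adjusted p = 0.0634).

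The receptors moved in opposite directions. Nr1h2 had 176, 178 and 184 CPM in stimulated WT and 95.3, 115 and 105 in stimulated iNOS KO, 1.71-fold lower (-0.77 ± 0.07, edgeR adjusted p = 1.04e-07). Nr1h3 had 14.9, 13.6 and 13.7 CPM in WT and 20.4, 20.3 and 18.0 in KO, 1.39-fold higher (0.47 ± 0.13, edgeR adjusted p = 0.00565). The more abundant LXRβ transcript was thus the one that was lower in KO cells. As these are bulk libraries, fewer cells that express a gene and less of its RNA per cell cannot be told apart.

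Apoe had 0.970, 1.08 and 0.832 CPM in stimulated WT (12 to 16 counts a library) and 2.51, 2.81 and 2.80 in stimulated iNOS KO (39 to 47 counts), 2.80-fold higher (1.49 ± 0.21, edgeR adjusted p = 1.31e-05). Mylip had 22.3, 19.2 and 20.0 CPM in WT and 11.7, 14.1 and 12.1 in KO, 1.62-fold lower (-0.70 ± 0.11, edgeR adjusted p = 5.51e-05). Lpcat3 had 36.6, 39.6 and 37.0 CPM in WT and 46.9, 54.3 and 43.6 in KO, 1.28-fold higher (0.35 ± 0.09, edgeR adjusted p = 0.00235). Abcg2, known as an efflux pump for drugs, porphyrins and urate rather than cholesterol, had 0.831, 0.540 and 1.18 CPM in WT (8 to 17 counts) and 5.08, 3.24 and 6.03 in KO (45 to 101 counts). Its 5.65-fold increase (2.50 ± 0.29, edgeR adjusted p = 1.51e-06) was the largest change of the 8 genes.

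Proliferation genes moved with the same groups. Mki67, a marker of cycling cells, had 489 to 569 CPM in unstimulated WT, 27.7 to 31.3 in stimulated WT, 522 to 648 in unstimulated iNOS KO and 148 to 282 in stimulated iNOS KO, and Top2a, a replication enzyme, had 8.03 to 8.31 CPM in stimulated WT against 170.3 to 316 in stimulated iNOS KO. The macrophage marker sum, led by Lyz2, was 6203 to 6947 CPM in stimulated WT and 9490 to 9889 in stimulated iNOS KO. The 7 markers were split, with 2 called higher and 3 lower in stimulated iNOS KO cells (median log2 fold change -0.07). They ran from Fcgr1 at 1.81 to Mertk at -2.69. The part of these genes and markers in the differences of the 8 genes was not tested.

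In unstimulated cells, 4 of the 8 members already differed between genotypes. Abca1 had 83.7, 87.2 and 86.2 CPM in WT and 48.4, 50.7 and 49.1 in iNOS KO, 1.73-fold lower (-0.79 ± 0.10, edgeR adjusted p = 3.99e-05). Abcg1 had 116, 124 and 128 CPM in WT and 85.3, 82.7 and 82.5 in KO (-0.55 ± 0.07, edgeR adjusted p = 0.000102). In both transporters the groups stood apart by more than the range within either.

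Abcg2 had 1.35, 1.28 and 1.06 CPM in WT and 3.56, 3.33 and 4.34 in KO, 3.03-fold higher (1.60 ± 0.26, edgeR adjusted p = 0.000725). Nr1h3 had 10.9, 9.95 and 11.6 CPM in WT and 7.08, 9.56 and 6.29 in KO (-0.50 ± 0.14, edgeR adjusted p = 0.0365), a call that was lost when any of 8 of the 12 libraries was left out (highest adjusted p 0.203, without KO replicate C). With library totals it was lost too (-0.45, edgeR adjusted p = 0.0706). The level of Nr1h3 was higher in KO cells after stimulation, while the lower level before it rests on this unsteady call. Over all genes, 1.88% were called higher and 4.09% lower between the unstimulated genotypes, and 1 and 3 of the 8 members were.

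Nr1h2 (-0.10 ± 0.07, edgeR adjusted p = 0.522), Lpcat3 (-0.19 ± 0.08, 0.237), Mylip (0.22 ± 0.11, 0.306) and Apoe (0.03 ± 0.15, 0.964) did not pass in unstimulated cells. In contrast to stimulated cells, the macrophage marker sum was lower here in KO (4549 to 4813 CPM) than in WT libraries (6724 to 7107). Of the 7 markers, 5 were called lower and 0 higher. Their part in these differences was not tested.

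Stimulation of WT cells raised Nr1h2 3.09-fold (1.63 ± 0.07, edgeR adjusted p = 3.64e-12), from 58.7, 57.3 and 58.2 CPM to 176, 178 and 184. Abca1 rose 2.53-fold (1.34 ± 0.09, edgeR adjusted p = 1.4e-09) from the unstimulated to the stimulated levels given above. Apoe fell 3.34-fold (-1.74 ± 0.20, edgeR adjusted p = 7.26e-07), from 3.29, 3.28 and 3.11 CPM, and Lpcat3 fell 1.51-fold (-0.59 ± 0.08, edgeR adjusted p = 1.08e-05), from 54.2, 60.2 and 56.1. For each of these 4 genes the stimulated and unstimulated libraries did not overlap.

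Smaller changes depended on scaling. Mylip rose by 0.44 ± 0.11 (edgeR adjusted p = 0.00216) from 15.0, 15.3 and 15.1 CPM, and Nr1h3 by 0.38 ± 0.13 (edgeR adjusted p = 0.0213). Scaled by library totals in place of TMM, Mylip stood at -0.02, Nr1h3 at -0.08 and Abcg1 at -0.42 (edgeR adjusted p 0.881, 0.603 and 5.04e-05). With TMM Abcg1 was at 0.04 ± 0.07 (edgeR adjusted p = 0.651) and Abcg2 at -0.54 ± 0.35 (edgeR adjusted p = 0.195). Library totals moved the median log2 fold change of all genes from 0.07 to -0.39 in WT and from -0.0003 to -0.41 in iNOS KO cells, and the 20 most abundant genes took 15.4% to 16.1% of the counts in stimulated against 9.79% to 10.6% in unstimulated WT libraries. Over all genes 32.4% were called higher and 28.5% lower on stimulation of WT cells (53.2% of calls higher, 33.9% with library totals), against 4 and 2 of the 8 members.

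In iNOS KO cells stimulation raised Nr1h3 2.56-fold (1.35 ± 0.13, edgeR adjusted p = 1.86e-07), Abca1 1.96-fold (0.97 ± 0.10, 2.07e-07) and Nr1h2 1.94-fold (0.96 ± 0.07, 7.48e-09). The unstimulated KO levels of Nr1h2 were 53.0, 56.7 and 52.3 CPM. Mylip fell by 0.48 ± 0.11 (edgeR adjusted p = 0.00142), from 19.5, 15.3 and 18.1 CPM, the opposite of its direction in WT cells with TMM scaling. Abcg1 rose by 0.31 ± 0.07 (edgeR adjusted p = 0.00184), but stood at -0.11 with library totals.

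Apoe (-0.29 ± 0.16, edgeR adjusted p = 0.151, from 3.56, 2.99 and 3.37 CPM), Lpcat3 (-0.04 ± 0.08, 0.688, from 48.6, 51.6 and 49.0) and Abcg2 (0.36 ± 0.22, 0.177) did not pass in iNOS KO cells. With library totals Apoe stood at -0.71 (adjusted p = 0.00118) and Lpcat3 at -0.46 (adjusted p = 0.00014). Over all genes 27.3% were called higher and 24.6% lower (52.6% of calls higher, 28.2% with library totals), against 4 and 1 members.

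The test of the difference between these responses, the interaction of genotype and stimulation, was passed by 6 of the 8 genes, 3 with a higher and 3 with a lower response in iNOS KO cells. Over all genes 20.0% were called higher and 15.4% lower. The response of Apoe was higher by 1.45 ± 0.26 (log2, edgeR adjusted p = 0.00029), of Nr1h3 by 0.98 ± 0.19 (0.000522) and of Lpcat3 by 0.55 ± 0.12 (0.00156). The response of Mylip was lower by 0.92 ± 0.16 (the fitted value is -0.92, edgeR adjusted p = 0.000157) and that of Nr1h2 was at -0.67 ± 0.10 (5.77e-05). Abca1 was at -0.37 ± 0.13 (edgeR adjusted p = 0.0391), a call lost with library totals (-0.33, adjusted p = 0.0759) and when any of 8 libraries was left out. Abcg1 (0.27 ± 0.10, edgeR adjusted p = 0.0526) and Abcg2 (0.90 ± 0.41, edgeR adjusted p = 0.102) did not pass. Without replicate B of stimulated iNOS KO, Abcg2 stood at 1.11 and passed (adjusted p = 0.016).

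**Figure D2:**
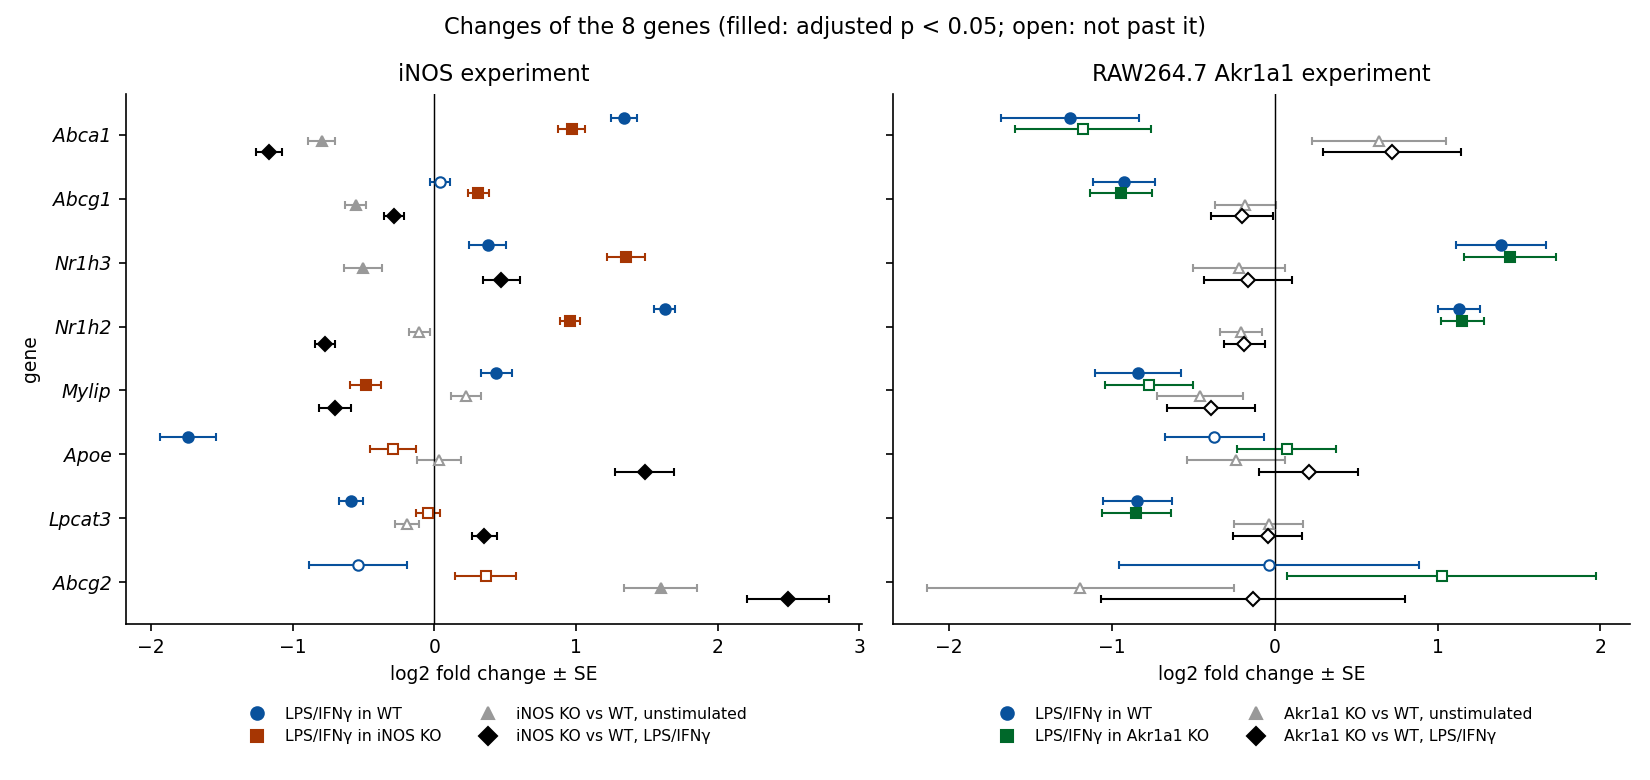
Log2 fold changes of the 8 genes with their SE (horizontal axes) in 4 comparisons of the iNOS experiment (left) and of the RAW264.7 Akr1a1 experiment (right); filled markers passed an adjusted p under 0.05 and open ones did not. For KO against WT under LPS/IFNγ (black diamonds), all 8 markers are filled on the left and none on the right. Over all genes tested, 9040 of 18691 passed in that comparison on the left and 56 of 19569 on the right.

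Other genes of the pathway were read from lists, whose members were named for their roles. Of 8 receptor partners and coregulators, 2 transcripts exceeded the stimulated WT level in iNOS KO cells and 4 fell short of it (median log2 fold change -0.37, against -0.04 over all genes tested). Pparg, a receptor that acts upstream of Nr1h3, was higher (1.43), at 1.10 ± 0.14 CPM in KO and 0.411 ± 0.1 in WT, and Ncoa1, a coactivator, was lowest (-1.42, 27.3 against 73.1 CPM). The RXR partners were at 0.13 (Rxra, not passed) and -0.53 (Rxrb). Among 5 genes of oxysterol enzymes, 4 were tested, 2 were higher and 0 lower. Ch25h, which makes 25-hydroxycholesterol, was higher by 3.26 at a low level (3.11 against 0.322 CPM).

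Of 14 further LXR targets, 11 were tested, and in stimulated cells 7 were higher and 3 lower with iNOS KO (median 0.62). The lipogenic genes Scd1 (3.17, 36.8 against 4.07 CPM), Fasn (1.95, 409 against 106) and Srebf1 (0.49) were higher, as was the phospholipid transfer gene Pltp (1.29). Mertk, a receptor for apoptotic cells, was lower (-2.69, 0.907 against 5.91 CPM). The 6 genes of the SREBP2 programme were all higher (median 1.23), from Sqle at 0.17 to Idi1 at 2.44. In unstimulated cells 0 of these 6 were higher and 1, Insig1, was lower (-0.32). Of the 11 further LXR targets, 3 were already higher and 1 lower in unstimulated iNOS KO cells. They ran from Mertk at -2.25 to Pltp at 1.06, and 1 of the 11 had no library above 3 counts in a group.

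Of 15 genes of cholesterol uptake, storage and trafficking, 14 were tested, and in stimulated cells 5 were higher and 8 lower with iNOS KO (median -0.23). Stard4, a sterol carrier, was at 2.38 and Scarb1, the scavenger receptor SR-BI, at 1.04, whereas Soat1, which esterifies cholesterol for storage, was at -0.76 and Lrp1, an endocytic receptor, at -0.68. Of 6 drug efflux transporters related to Abcg2 by function, 2 were higher and 1 lower. Abcb1b was at 1.54 (126 against 43.5 CPM) and Abcc4 at 0.79, and Abcc3 was at -0.67. In 1 list, the SREBP2 programme, all reported members moved one way, which describes this list and was not tested against other genes.

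The interaction was passed by all 6 SREBP2 genes, each with a higher response in iNOS KO cells (median 1.38). In WT cells all 6 fell on stimulation (median -1.82), from -0.54 in Insig1 to -3.30 in Idi1. In iNOS KO cells 5 fell and Insig1 rose (0.66). Of the 11 further LXR targets, 8 fell and 2 rose in WT cells (median -1.40, with Scd1 at -5.46), and 6 had a higher and 1 a lower response in iNOS KO cells. All 6 drug efflux transporters passed in WT cells, 4 higher and 2 lower, and Abcb1b was at -1.43 in WT but 0.10 in iNOS KO cells, where it did not pass.

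**Figure D3:**
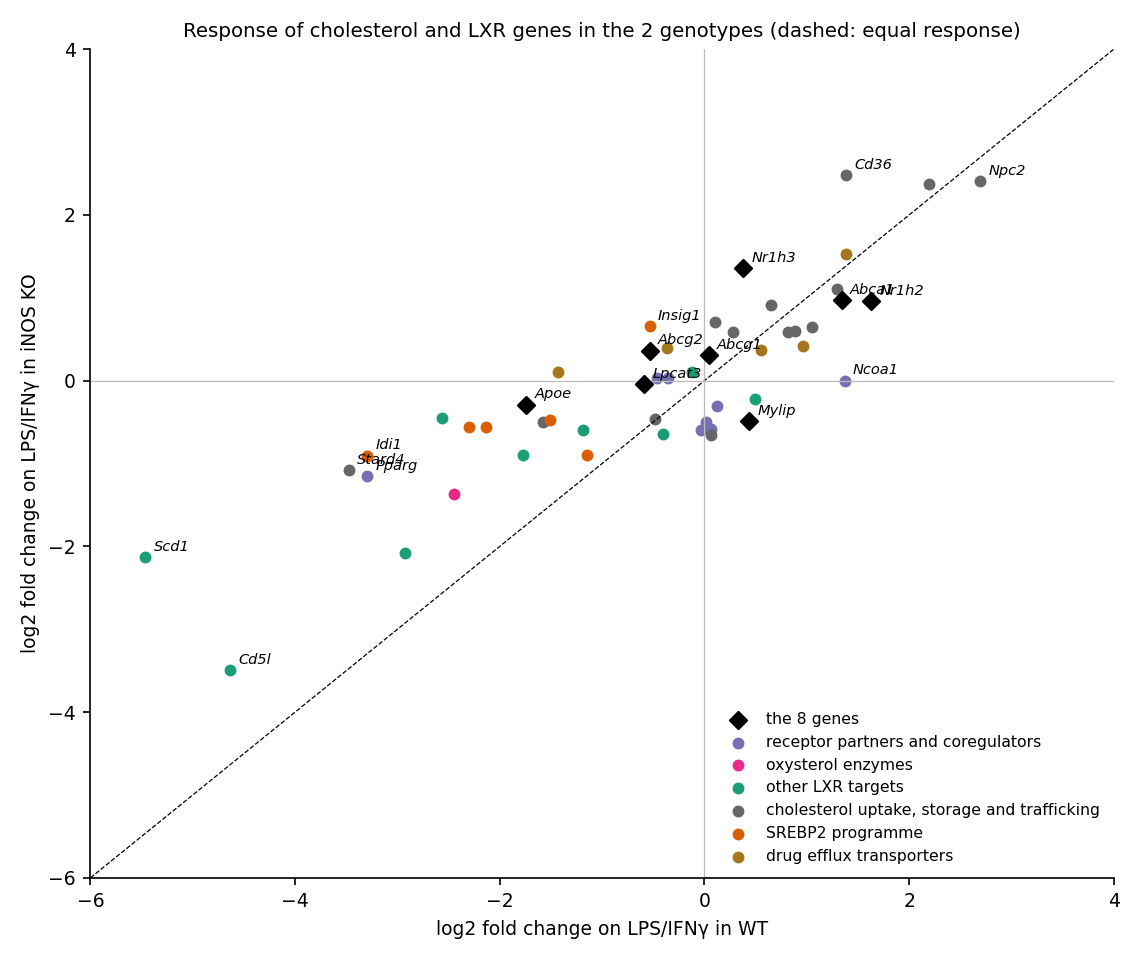
Log2 fold change on LPS/IFNγ stimulation in WT (horizontal) and iNOS KO cells (vertical) of the 8 genes (black diamonds) and of the genes of 6 lists (coloured points) whose groups all exceeded 3 counts in some library; the dashed line marks equal responses. Scd1 and Idi1 lie far above the line (-5.46 and -3.30 in WT), and Mylip, Nr1h2 and Abca1 lie below it.

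Over the 12 libraries of the iNOS experiment, the 3 genes whose log2 CPM followed each member most closely were sought among 8572 protein-coding genes. Pearson's r was 0.985 to 0.982 for Sptbn1, Soat1 and Clec7a with Abca1, and 0.998 for Rasa4 with Nr1h2. Lmf1 followed Abcg1 (0.951), Pou2f2 followed Nr1h3 (0.963), Gdpd5 followed Mylip (0.926) and Fam133b followed Abcg2 (0.973). For Apoe the closest were Ddx18, Ccnb2 and Spag5 (0.995 to 0.994), the last 2 of which are mitotic genes. For Lpcat3 they included Cactin and Bnip1 (0.978 and 0.972). The libraries fall into 4 groups that share genotype, stimulation and scaling, so these values describe a shared group pattern only.

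In RAW264.7 cells, 0 of the 8 genes were called between Akr1a1 KO and WT, stimulated or unstimulated, by edgeR or by DESeq2, and 0 had an unadjusted p under 0.05. With no filter on low counts, edgeR called 1 stimulated (Abca1) and 2 unstimulated (Abca1 and Abcg2). That fit called 1015 of all 27617 genes stimulated and 846 unstimulated. In edgeR's filtered fit of 19569 genes, 0.0869% were called higher and 0.199% lower in stimulated cells, and 0.230% and 0.353% in unstimulated cells. DESeq2 called 480 of the 19569 genes stimulated and 406 unstimulated. The largest difference in stimulated cells was that of Abca1, with 7.59 and 22.9 CPM in WT and 27.8 and 22.8 in KO clones (0.72 ± 0.42, edgeR adjusted p = 0.576). The WT pair was far apart, and its replicate B reached the KO level. Nr1h2 had 158 and 169.9 CPM in WT and 142 and 147 in KO (-0.19 ± 0.13, edgeR adjusted p = 0.638).

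In unstimulated RAW264.7 cells Abca1 had 42.5 and 30.9 CPM in WT and 62.5 and 51.8 in KO (0.64 ± 0.41, edgeR adjusted p = 0.801). Mylip had 21.1 and 13.2 in WT and 12.6 and 12.2 in KO (-0.46 ± 0.26, edgeR adjusted p = 0.76). The groups did not overlap in these genes or in Nr1h2, but the spread between clones was large.

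Abcg2 showed the widest spread, with replicate B above A in all 4 RAW264.7 groups. Its CPM were 2.40 and 22.7 in unstimulated WT, 3.38 and 7.62 in unstimulated KO, 6.62 and 18.3 in stimulated WT, and 6.03 and 16.8 in stimulated KO. Whether a letter marks the same clone with and without stimulation is not given in the sources used here, and no group difference in Abcg2 passed (SE 0.92 to 0.95 on the log2 scale).

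**Figure D4:**
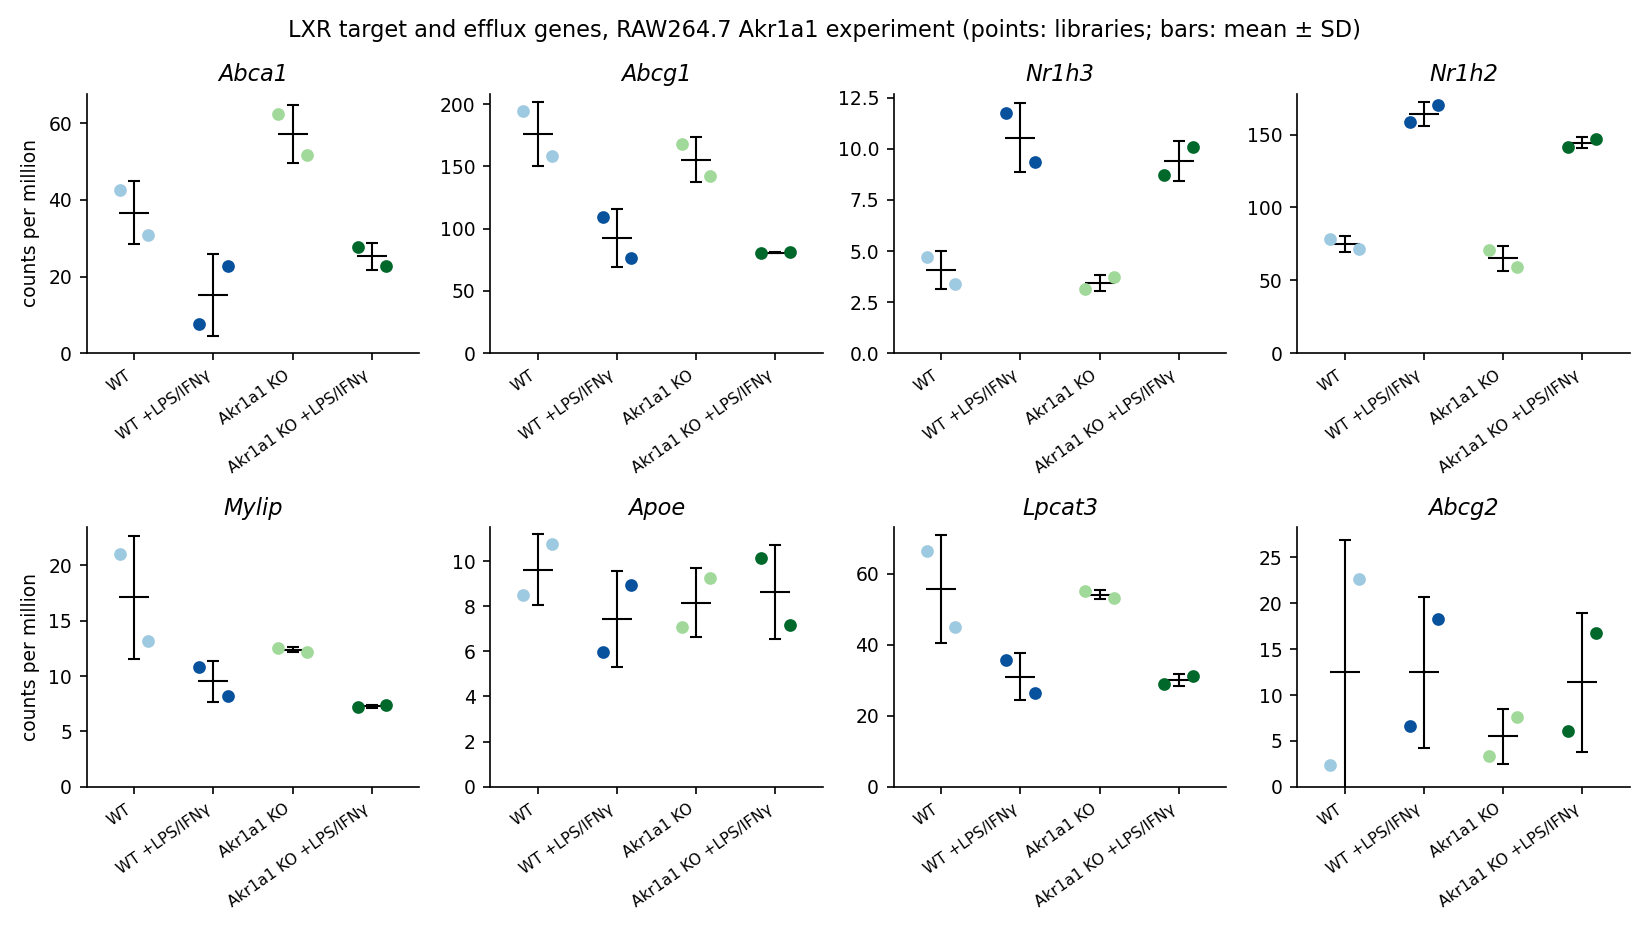
CPM of the 8 genes (vertical axes, linear from 0) in the 4 groups of the RAW264.7 Akr1a1 experiment; points are libraries of single clones, A left and B right, and ticks with bars are the mean and SD of 2 libraries. Nr1h2 stands at 141.6 to 169.9 CPM in stimulated and 59.0 to 78.7 in unstimulated libraries, with no separation as wide between genotypes.

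Stimulation changed 6 of the 8 genes in WT RAW264.7 cells, 2 higher and 4 lower, against 18.5% of all genes called higher and 19.2% lower. Both receptors rose: Nr1h3 from 4.72 and 3.40 to 11.8 and 9.34 CPM (1.39 ± 0.28, edgeR adjusted p = 0.00476), and Nr1h2 2.19-fold from 78.7 and 71.1 CPM to the levels given above (1.13 ± 0.13, edgeR adjusted p = 0.000269). Abcg1 fell from 194 and 158 to 109 and 76.3 CPM (-0.93 ± 0.19, edgeR adjusted p = 0.00534), and Lpcat3 from 66.4 and 45.0 to 35.7 and 26.3 (-0.84 ± 0.21, 0.0143).

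Abca1 (-1.25 ± 0.42, edgeR adjusted p = 0.0473) and Mylip (-0.84 ± 0.27, 0.0375, to 10.9 and 8.22 CPM) fell, both close to the threshold. Each was called in 1 of the 8 fits with a library left out. Abca1 ran from -2.22 without stimulated WT replicate B to -0.62 without stimulated WT replicate A, and Mylip from -1.15 without unstimulated WT replicate B to -0.47 without unstimulated WT replicate A. Without both libraries of disagreeing titles, 4 of the 8 were called, and Abca1 (-1.47, edgeR adjusted p = 0.115) and Nr1h3 (1.15, 0.0774) were not. With each of the 8 libraries left out in turn, 3 to 5 were called. The fewest, 3, were called without WT unstimulated replicate A. Apoe had 8.50 and 10.7 CPM unstimulated and 5.95 and 8.95 stimulated (-0.37 ± 0.30, edgeR adjusted p = 0.374).

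In Akr1a1 KO cells 4 genes were called on stimulation, 2 higher and 2 lower, against 19.8% and 19.4% of all genes. Nr1h3 rose from 3.14 and 3.72 to 8.71 and 10.1 CPM (1.45 ± 0.28, edgeR adjusted p = 0.00391) and Nr1h2 from 70.9 and 59.0 CPM (1.15 ± 0.13, 0.000233). Abcg1 fell from 168 and 142 to 80.3 and 81.1 CPM (-0.94 ± 0.19, 0.00467), and Lpcat3 from 55.0 and 53.3 to 28.8 and 31.3 (-0.85 ± 0.21, 0.0135). Abca1 (-1.17 ± 0.42, edgeR adjusted p = 0.0552), Mylip (-0.77 ± 0.27, 0.0517, to 7.17 and 7.35 CPM), Apoe (0.07 ± 0.30, 0.873) and Abcg2 (1.02 ± 0.95, 0.436) did not pass. Abca1 and Mylip were called in these cells in the fit of only the 2 groups (edgeR adjusted p 0.00136 and 0.0188), with library totals (0.0374 and 0.0306) and with no filter on counts (4.28e-08 and 0.0262), and Abca1 with DESeq2 (adjusted p = 0.0223). Library totals in place of TMM moved the median of all genes from -0.03 to -0.26 in WT and from 0.02 to -0.12 in KO cells, and the share of higher calls from 49.1% to 35.8% in WT cells.

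The interaction called 0 of the 8 genes by edgeR, with 0 by DESeq2 and a lowest adjusted p of 0.939 (Apoe, 0.45 ± 0.43), and 0.00511% of all genes were called higher and 0.0153% lower. Its values for the other members ran from -0.02 (Abcg1) to 1.06 (Abcg2, SE 1.32). In the lists, the SREBP2 programme fell on stimulation in both RAW264.7 genotypes (6 of 6 in WT, median -1.60, and 6 of 6 in KO, median -2.02). Between genotypes 1 gene of the 6 pathway lists was called, Scarb1 in unstimulated cells, with 213 and 185 CPM in WT and 95.4 and 96.5 in KO clones (-1.05 ± 0.13, edgeR adjusted p = 0.017). Of the macrophage markers, Itgam was lower in unstimulated KO cells (-2.25, edgeR adjusted p = 0.0417) and Csf1r in stimulated KO cells (-1.17, edgeR adjusted p = 0.011). The marker sum was 3790 to 4318 CPM in WT and 2765 to 3014 in KO unstimulated, and 8677 to 9527 in WT and 2991 to 6581 in KO stimulated.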

How the data were processed

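Gene read counts were analysed in 20 libraries of mouse macrophages, grouped by their labels. Per the labels and the study's methods, the authors made poly(A) libraries, called bases with CASAVA, removed low-quality reads, aligned with STAR to mm10 and deposited counts per gene without normalization. The counter, annotation release and strand setting are not given in the sources used here. The deposited tables also list gene lengths, used for CPM per kb.

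The minimum for testing was 10 counts summed over an experiment, which 18691 (iNOS) and 19569 (RAW264.7) of 56748 genes reached. Counts were scaled by TMM and fitted with 1 mean for each of the 4 groups of an experiment by edgeR 4.0.16 (R 4.3.3), with 2-sided quasi-likelihood F tests. P-values were adjusted over all these genes by Benjamini-Hochberg, and a gene was called at an adjusted p under 0.05. The common dispersion was 0.00845 in the iNOS experiment and 0.0522 in RAW264.7 cells. There were 10 comparisons. Each KO comparison of an experiment shares a group of libraries with each stimulation comparison, and the interaction uses all 4 groups. Nothing states that replicates of the iNOS experiment were separate animals, so p-values measure the spread between these libraries. Residuals of libraries with the same letter correlated between -0.517 and 0.497 over the pairs of groups, and in RAW264.7 cells they were 0.438 (WT) and 0.103 (KO) between unstimulated and stimulated libraries and -0.165 and -0.1 between genotypes. Whether a letter marks a clone within a genotype is not given in the sources used here, and the letters were not taken to pair libraries. The tests were tried on simulated data. A few listed genes are not reported here. The genes, lists and rule for named genes (the 8 genes everywhere, called list genes with the largest rise and fall, the 2 targets and the 3 most similar genes) were chosen with earlier results of these data known. C1q and cell-cycle genes, further named list genes and library-total scaling were chosen after the values were seen. Alternatives were DESeq2 1.42.0, its size factors, library totals, other filters, a fold limit, the groups compared alone, a replicate block and leaving out libraries. Figures used matplotlib 3.10.9.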

Additional observations from a re-analysis of the deposited data

Results flagged for a closer look

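The responses to stimulation differed between WT and iNOS KO cells by the interaction test in 6 of the 8 genes, which is what singled them out. Over all genes tested, 20.0% were called with a higher and 15.4% with a lower response in iNOS KO cells. The differences (KO response minus WT response, log2) were -0.37 for Abca1, 0.98 for Nr1h3, -0.67 for Nr1h2, -0.92 for Mylip, 1.45 for Apoe and 0.55 for Lpcat3. The call of Abca1 was unsteady: it was lost with library totals (edgeR adjusted p = 0.0759) and held in 4 of 12 fits with a library left out.

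Abca1 and Mylip moved in opposite directions in the WT cells of the 2 experiments. They were singled out for opposite signs with no overlap of stimulated and unstimulated libraries in either experiment, so that separation is no added support. In RAW264.7 cells it rests on 2 libraries a group. Abca1 rose by 1.34 in the iNOS experiment and was at -1.25 in RAW264.7 cells. Mylip was at 0.44 in the iNOS experiment, where library totals turned it to -0.02, and at -0.84 in RAW264.7 cells. In RAW264.7 cells, leaving out a library moved Abca1 between -2.22 and -0.62 and Mylip between -1.15 and -0.47, and each was called in 1 of 8 such fits. The difference between experiments was not tested. The labels give the experiments different cell types and IFNγ doses, but the study's methods name RAW264.7 for both.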

How the results depend on the processing

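Depth limits Apoe and Abcg2 most, with as few as 12 and 8 counts a library in the iNOS experiment. In the order KO against WT stimulated, KO against WT unstimulated, stimulation of WT, stimulation of KO and interaction, 8, 4, 6, 5 and 6 of the 8 genes were called in the iNOS experiment and 0, 0, 6, 4 and 0 in RAW264.7 cells. These counts are to be read against the calls over all genes. In the same order those were 9040, 1117, 11384, 9706 and 6617 of 18691 in the iNOS experiment. In RAW264.7 cells they were 56, 114, 7377, 7675 and 4 of 19569. The cause of the changes below was not tested.

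A log2 fold change over 1 left 3, 1, 3, 1 and 1 calls in the iNOS experiment and 3 (WT) and 2 (KO) on stimulation of RAW264.7 cells. Over all genes this limit left 3655, 310, 6611, 4258 and 2809 calls in the iNOS experiment. On stimulation of RAW264.7 cells it left 4778 (WT) and 5119 (KO). With no filter on counts, 1, 2 and 7 genes were called for Akr1a1 KO against WT stimulated, unstimulated and stimulation of KO. Over all 27617 genes of that fit the calls were 1015, 846 and 8181. With only the 2 groups compared, stimulation of RAW264.7 cells gave 3 calls in WT and 6 in KO. Over all genes, 6281 of 17608 were then called in WT and 8453 of 17251 in KO. With each library left out, the iNOS experiment gave 8 to 8, 3 to 5, 5 to 6, 5 to 6 and 5 to 7 calls, and RAW264.7 cells 0 to 0, 0 to 0, 3 to 5, 3 to 5 and 0 to 0.

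Signs turned in differences that were small or variable. Library totals in place of TMM, chosen after seeing the data, gave Abcg1 -0.42, Nr1h3 -0.0840 and Mylip -0.0224 on stimulation of WT and Abcg1 -0.107 and Abcg2 -0.0543 on stimulation of iNOS KO cells, and in RAW264.7 cells Lpcat3 0.0136 (KO against WT, stimulated) and Apoe -0.0735 (stimulation of KO). Only 2 groups gave Abcg1 -0.0180 in WT of the iNOS experiment. On stimulation of WT RAW264.7 cells, Abcg2 (-0.04 as reported) stood at 0.0963 with DESeq2, 0.0704 with its size factors, 0.0234 with filterByExpr, 0.0266 with only 2 groups and 2.38 without the 2 libraries of disagreeing titles, which also gave 0.49 for KO against WT unstimulated.

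With a library left out, the iNOS experiment gave Abcg1 -0.000513 to 0.0806 on stimulation of WT, Lpcat3 -0.14 to 0.0237 on stimulation of KO and Apoe -0.0226 to 0.101 for unstimulated KO against WT. For stimulated Akr1a1 KO against WT, Abcg1 ran from -0.45 to 0.0547, Apoe from -0.0945 to 0.52, Lpcat3 from -0.26 to 0.17 and Abcg2 from -1.06 to 0.77. Unstimulated, Nr1h3 ran from -0.45 to 0.0227, Lpcat3 from -0.30 to 0.27 and Abcg2 from -2.01 to 1.22, the highest without WT replicate B. On stimulation of RAW264.7 cells, Abcg2 in WT ran from -0.89 to 2.38 (the highest without unstimulated replicate B) and Apoe in KO from -0.20 to 0.32. None of these differences was called with a library left out.

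The letters were not taken to pair libraries. With the replicate block 8, 4, 6, 5 and 6 genes were called in the iNOS experiment and 0, 0, 5, 5 and 0 in RAW264.7 cells, and Abcg2 turned to 0.33 on stimulation of WT RAW264.7 cells. Over all genes the block gave 8858, 1054, 11170, 9509 and 6542 calls of 18691 in the iNOS experiment. In RAW264.7 cells it gave 63, 144, 7144, 7453 and 2 of 19569. With the block, Abca1 was lost in WT (adjusted p = 0.0583) and Mylip gained in KO (0.0389) on stimulation of RAW264.7 cells.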
